A study of Mus musculus with 12 samples.

Results

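The genes described here are the potassium channel genes of the mouse, taken as every protein-coding autosomal gene of the GENCODE annotation whose symbol starts with Kcn. There were 92 of them among 20807 protein-coding autosomal genes. Of the 92, 79 carried a site of trimethylated lysine 27 of histone H3 (H3K27me3) within 1 kb of a transcription start site (TSS), which is 85.9%, whereas 26.9% of all genes did (5603 genes). At least 50% of the gene body, counted from the first to the last annotated base with introns, was covered by sites in 39 of the 92 (42.4%), compared to 10.2% of all genes. The 29 genes for voltage-gated pores all had a site at a TSS. The 13 genes with none were spread over the inward rectifiers, the calcium- and sodium-activated channels, the auxiliary subunits and 2 further genes, Kcnk7 and Kcnv2, and each of them had 0% of its body covered.

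Potassium channels let potassium ions leave or enter the cell and thereby set the resting potential and shape the action potentials of nerve, heart and muscle. A channel is assembled from pore-forming alpha subunits, which open to voltage, to calcium or sodium ions, to G proteins or nucleotides, or pass a constant leak current, and from auxiliary subunits that alter gating or traffic. H3K27me3 is placed by Polycomb repressive complex 2, is associated with silent genes, and is known to form broad stretches over developmental and neuronal genes with CpG-rich promoters in cell types that do not use them.

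The mark was measured by ChIP-seq, the sequencing of immunoprecipitated chromatin, in iMEF cells, a line of immortalized fibroblasts from the mouse embryo. There were 8 libraries of the mark, 2 each from untreated cells (labelled WT) and from cells treated with dTAG for 16 h, 24 h or 48 h. A further 4 libraries were input chromatin, 2 from untreated cells and 2 from cells treated with dTAG for 48 h. Every group, the untreated included, carried the same modification: floxed Ash2l alleles with Cre-ER whose endogenous product the study could no longer detect, and in its place human ASH2L, a subunit of the complexes that methylate lysine 4 of histone H3, fused to an FKBP12 domain and brought in by a lentivirus, so that dTAG-13 leads to its degradation. The study's ChIP-seq came from a single clone, NG3. What was deposited and used here is 1 list of the positions of 101389 sites over all of these samples together. It gives no value for a library, so the depth is unknown, no replicate error could be given, and a gene with a site may have carried it before treatment, after it, or both. Every value below is therefore a description of the pooled list.

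As a limited check of the cell type, 1 of 10 fibroblast marker genes was marked at a TSS, with the same 1 kb limit (Pdgfra). Col1a1, Col1a2, Col3a1, Dcn, Fn1, Pdgfrb, Postn, Thy1 and Vim had none. Of all genes, 26.9% were marked. In contrast, 5 of 7 neuronal markers (Elavl4, Nefl, Rbfox3, Snap25 and Stmn2) and 5 of 6 heart muscle markers (Actc1, Myh6, Myh7, Tnni3 and Tnnt2) had a site. The neuronal Map2 and Tubb3 and the heart muscle marker Nppa had none. Of the 8 neuronal markers listed, Syp was not among the genes scored. The mark does not measure expression.

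Before the values, 6 promoters show the sequence over which the mark lay or was missing. Each line gives the 250 bases upstream of the RefSeq start of the gene on its own strand (GRCm38.p6), written 5′ to 3′, with CpG dinucleotides (the letters CG, which read the same on both strands) in capitals. Of all 31396 autosomal RefSeq promoters of this length, 92.4% held at least 1 CpG. The first 3 were covered by a site over all 250 bases. Kcnj4 (chr15:79505242-79505491, minus strand) and Kcnk12 (chr17:87797995-87798244, minus strand) were CpG-rich, with 35 and 16 CpGs, and Kcnk16 (chr14:20269270-20269519, minus strand) had 0. 
Kcnj4: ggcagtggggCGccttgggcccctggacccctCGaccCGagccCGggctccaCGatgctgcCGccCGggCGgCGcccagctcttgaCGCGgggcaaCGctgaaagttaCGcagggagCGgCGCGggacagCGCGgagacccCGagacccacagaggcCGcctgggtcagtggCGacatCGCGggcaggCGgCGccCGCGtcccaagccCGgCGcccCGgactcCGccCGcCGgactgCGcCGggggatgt
Kcnk12: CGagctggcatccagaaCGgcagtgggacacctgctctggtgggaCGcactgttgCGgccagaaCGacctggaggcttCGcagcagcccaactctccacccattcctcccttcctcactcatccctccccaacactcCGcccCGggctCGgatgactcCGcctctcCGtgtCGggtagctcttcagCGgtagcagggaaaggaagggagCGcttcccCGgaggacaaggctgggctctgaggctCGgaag
Kcnk16: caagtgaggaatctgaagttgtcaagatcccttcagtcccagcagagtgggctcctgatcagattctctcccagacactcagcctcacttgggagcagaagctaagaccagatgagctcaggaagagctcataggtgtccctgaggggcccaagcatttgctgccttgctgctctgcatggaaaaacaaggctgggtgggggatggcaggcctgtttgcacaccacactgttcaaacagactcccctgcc
The other 3 were not touched by a site. Kcnj2 (chr11:111065914-111066163, plus strand) had 14 CpGs, Kcnn4 (chr7:24370013-24370262, plus strand) 6 and Kcnj13 (chr1:87394730-87394979, minus strand) 3.
Kcnj2: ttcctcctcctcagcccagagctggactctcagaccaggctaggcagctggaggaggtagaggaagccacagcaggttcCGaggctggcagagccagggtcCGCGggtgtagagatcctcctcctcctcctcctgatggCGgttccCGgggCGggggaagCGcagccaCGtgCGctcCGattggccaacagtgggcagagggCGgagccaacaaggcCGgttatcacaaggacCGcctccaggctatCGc
Kcnn4: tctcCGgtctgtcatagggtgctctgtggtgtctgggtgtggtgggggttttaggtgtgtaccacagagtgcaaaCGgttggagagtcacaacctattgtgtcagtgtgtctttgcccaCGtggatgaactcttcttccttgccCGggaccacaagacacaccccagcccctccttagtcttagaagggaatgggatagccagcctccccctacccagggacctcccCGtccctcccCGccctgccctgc
Kcnj13: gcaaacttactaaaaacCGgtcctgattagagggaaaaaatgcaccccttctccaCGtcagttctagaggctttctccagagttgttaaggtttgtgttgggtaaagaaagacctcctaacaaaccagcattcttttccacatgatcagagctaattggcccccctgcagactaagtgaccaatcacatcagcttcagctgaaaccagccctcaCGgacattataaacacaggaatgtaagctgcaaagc
These 6 were chosen after their values were seen, to show CpG-rich and CpG-poor promoters on both sides.

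Among the voltage-gated pores, the Kcna subfamily, which opens near the threshold of the action potential, was the most completely covered of those with 3 or more genes. All 8 Kcna genes had a site at a TSS, and the median share of the body covered was 99.1%. Kcna1 and Kcna2, the channels of axons, had 100% and 98.2% of the body covered, Kcna3, the channel of T lymphocytes, 100%, Kcna5, which repolarizes the atrium of the heart, 100%, and Kcna7, a muscle channel, 100%. Kcna10, a channel of inner ear hair cells, had 97.6% and Kcna6 71.0%. Kcna4, a fast inactivating channel, stood apart with 27.8%, from 1 site of 2186 bp.

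Most Kcna genes lie in clusters, and there sites also lay between the genes. Kcna5, Kcna1 and Kcna6 occupy 208.1 kb (chr6:126532551-126740674), of which 76.1% was covered by 42 sites, and the site over Kcna5 alone was 45108 bp wide although the gene is 2862 bp long. Kcna3, Kcna2 and Kcna10 occupy 159.6 kb (chr3:107036169-107195721), with 51.5% covered by 34 sites. Most of the stretch between Kcna3 and Kcna2 held no site. No site near a TSS of any Kcna gene reached a second Kcna gene, so that the clusters were covered by separate sites and not by a single one.

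The remaining voltage-gated subfamilies all had a site at a TSS but differed in how far it spread. Of the Kcnc genes, which serve fast-spiking neurons, Kcnc4 had 90.8% of the body covered and Kcnc1 85.3%, whereas Kcnc2 had 0.615%. Kcnb2, a delayed rectifier of neurons, had 2.43%. Kcnd3 and Kcnd2, which carry the transient outward current of heart and neurons, had 35.2% and 0.639%. The genes with little of the body covered were long ones: Kcnc2 spans 195.9 kb, Kcnb2 436.5 kb and Kcnd2 514.3 kb.

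In the Kcnq subfamily, Kcnq3, which contributes to the M current that dampens neuronal firing, had 46.9% of the body covered. Kcnq1, the slow delayed rectifier of the heart, had 20.1%, and Kcnq5 had 0.0649%, a stretch of 366 bp at the start of a gene of 563.5 kb. The 8 Kcnh genes ranged from 0.182% (Kcnh7) to 99.6% (Kcnh4), with a median of 35.0%. Kcnh2, which encodes the rapid delayed rectifier of the heart, had 36.4%, and Kcnh1 33.7%.

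Kcnq1 had sites over each of its 7 TSSs and along its first 93.1 kb, and again from 208.5 kb to its end. The 115.4 kb between held no site. This stretch includes the whole of Kcnq1ot1, the antisense RNA of the imprinted Kcnq1 domain, which GENCODE places on the minus strand at chr7:143203458-143296549, with 0 of its bases covered. Alleles cannot be told apart in this list.

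The silent subunits do not form a channel alone but alter Kcnb channels when they assemble with them, and 9 of 10 had a site. Kcng4, Kcng1 and Kcng2 had 98.8%, 93.3% and 90.9% of the body covered and Kcng3 23.3%. Kcns2 had 100%, Kcns1 74.4% and Kcns3 27.6%. Kcnf1 had 31.3%, and its site of 1498 bp ended 386 bp short of the TSS, within the gene. Kcnv1 had 1727 of 8637 bp covered, whereas Kcnv2, a subunit known from photoreceptors, had no site closer than 104.2 kb.

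The tandem-pore (Kcnk) genes make the leak channels behind the resting potential, and 13 of 14 had a site. Kcnk15 and Kcnk16, the latter known from pancreatic islets, were covered over 100% of the body, and the site at Kcnk15 was 40410 bp wide for a gene of 6096 bp. Kcnk4, a mechanosensitive channel, had 69.4%, Kcnk18, a channel of sensory neurons, 54.2%, and Kcnk1 51.8%. The acid-sensitive channels Kcnk3 and Kcnk9 had 29.0% and 10.0%. The mechanosensitive Kcnk10 and Kcnk2 had 5.41% and 0.521%. Kcnk7 was the exception, with its nearest site 30.4 kb from a TSS.

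The inward rectifiers (Kcnj) pass current more readily into the cell than out of it, and they were divided: 10 of 15 had a site and 5 had none. All 4 genes for G protein-gated channels had a site, with 69.9% of the body covered for Kcnj5, 45.0% for Kcnj9, 43.0% for Kcnj6 and 1.84% for Kcnj3. Both pores of the ATP-sensitive channel were largely covered, Kcnj11 over 100% and Kcnj8 over 89.4% of the body. Of the strong rectifiers, Kcnj4 and Kcnj12 had 85.2% and 58.1%, but Kcnj2, which stabilizes the resting potential of muscle and heart, had 0%. Kcnj10, the channel of glial cells, had 85.2%, and Kcnj1, a potassium channel of the kidney tubule, had 16011 of 26705 bp covered.

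The 5 inward rectifiers without a site differed in how far away the mark was. Kcnj14 lay 7002 bp from a site, Kcnj15 61.0 kb and Kcnj13, known from the retinal pigment epithelium, 74.7 kb. Kcnj16 and Kcnj2 are neighbours (chr11:110968033-111076821), and their nearest sites were 621.5 kb and 719.6 kb away, the farthest of all potassium channel genes. They lie in a stretch of 1890 kb without any site. Kcnj9 and Kcnj10, which are also neighbours and are transcribed away from each other (chr1:172320501-172374085), showed the opposite picture: a single site of 41084 bp covered the TSSs of both, and 81.9% of the 53.6 kb they span was covered.

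**Figure D1:**
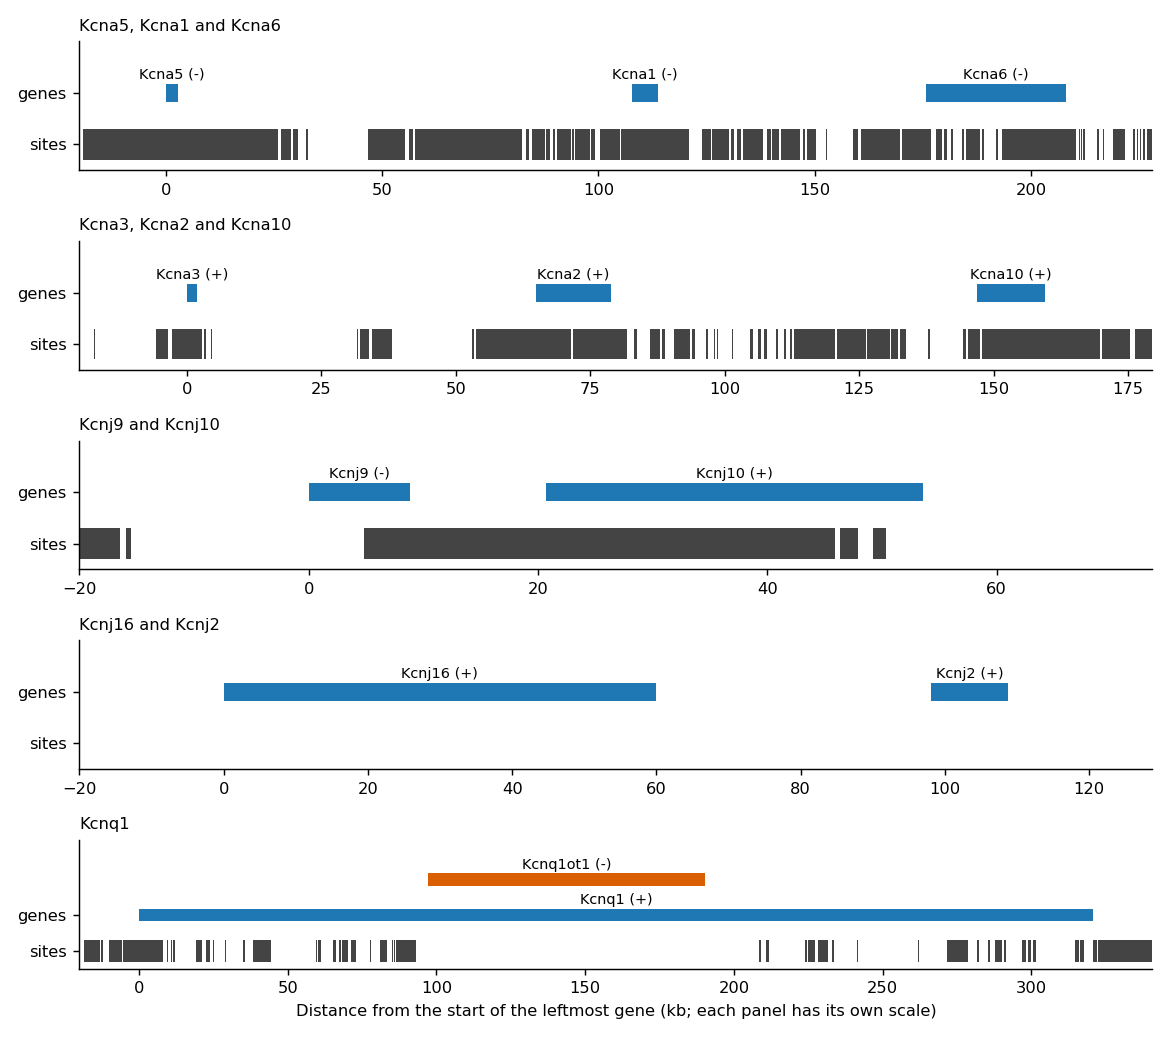
Positions of H3K27me3 sites (grey blocks) and genes (blue bars, strand in brackets) at 5 loci, in kb from the start of the leftmost gene, each panel with its own scale. Sites also lie between the Kcna genes of both clusters, with wide gaps between Kcna3 and Kcna2. In the other panels, 1 site spans Kcnj9 and Kcnj10, none lies near Kcnj16 and Kcnj2, and Kcnq1 has none along Kcnq1ot1 (orange).

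Channels opened by intracellular ions had a site in 6 of 8 genes. Kcnma1, the large-conductance calcium-activated channel, had 31.7% of its 725.1 kb covered. This amounts to 230.1 kb in 85 sites, more than in any other potassium channel gene. Of the small-conductance channels, Kcnn3 had 71.5%, Kcnn1 19.6% and Kcnn2 2.88% covered. Kcnn4, the intermediate-conductance channel known from T lymphocytes, red cells and dividing fibroblasts, had none, and its nearest site was 6.96 kb from a TSS. The sodium-activated channels also split, with 76.5% for Kcnt1 and 0% for Kcnt2, which was 170.0 kb from a site. Kcnu1, the channel of sperm, had 40.6%.

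A short site of 255 bp (chr8:25848512-25848766) lay within 1 kb of TSSs of both Kcnu1 and its neighbour Ash2l, the gene whose endogenous product is lost in these cells. Kcnu1 kept a site without it, since a site also covered its most upstream TSS.

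Of the 16 auxiliary genes, 12 had a site, and 4 had at least 50% of the body covered. Among the Kcnip genes, whose products bind calcium and accompany Kcnd channels, Kcnip3 had 98.6%, Kcnip1 51.2%, Kcnip2 11.6% and Kcnip4 0.250%. The body of Kcnip3 was covered by 3 sites together, of which the widest, of 59649 bp, also reached Prom2. Of the single-span Kcne subunits, Kcne2 and Kcne3 had 92.7% and 92.2%, Kcne1, the partner of Kcnq1, 8.66%, and Kcne4 0%, with its nearest site 94.9 kb away. Of the Kcnmb subunits, which accompany Kcnma1, Kcnmb1 had 39.4%, Kcnmb2 10.5%, Kcnmb4 4.84% and Kcnmb3 0%. Of the cytoplasmic Kcnab subunits, which accompany Kcna channels, Kcnab2 had 16.2%, Kcnab1 0.292% and Kcnab3 0%. Kcnrg, whose product hinders channel assembly, had 0%. Kcnab3, Kcnmb3 and Kcnrg lay 41.2 kb, 135.8 kb and 102.9 kb from a site.

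**Figure D2:**
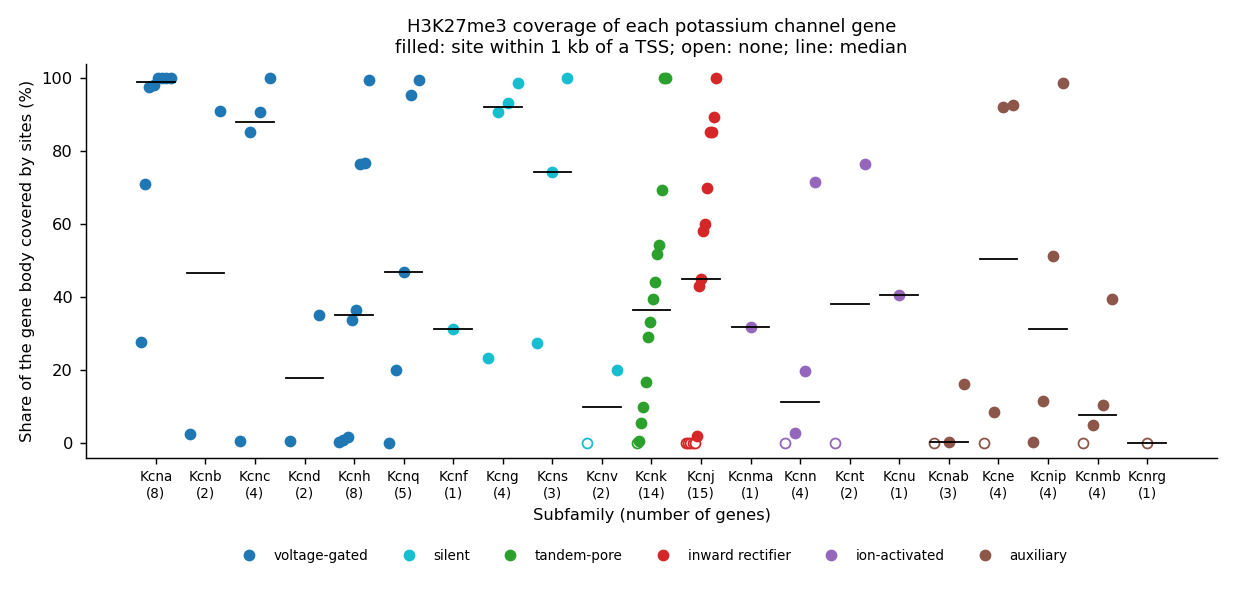
Share of the gene body covered by H3K27me3 sites (vertical axis, %) for each of the 92 genes, by subfamily (number of genes in brackets). Filled points have a site within 1 kb of a TSS, open points do not, lines are medians; Kcna, Kcnc and Kcng sit highest among subfamilies of 3 or more, and the open points all lie at 0.

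By role, a site was thus found in 29 of 29 voltage-gated, 13 of 14 tandem-pore, 9 of 10 silent, 6 of 8 ion-activated, 12 of 16 auxiliary and 10 of 15 inward rectifier genes. At least 50% of the body was covered in 16, 5, 5, 2, 4 and 7 of them. The inward rectifiers, with the lowest share of genes with a site, had the widest sites where they had any, with a median of 19087 bp for the widest site at a TSS. The corresponding median was 14105 bp for silent, 13581 bp for voltage-gated, 6530 bp for tandem-pore, 6093 bp for ion-activated and 3670 bp for auxiliary genes. These differences between small groups of genes were not tested, and neighbouring genes can share chromatin.

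Other ion channel and receptor families were scored in the same way for comparison. Of the 109 genes in 12 such families, 73 had a site (67.0%) and 21 had at least 50% of the body covered (19.3%). Every Hcn gene, which make the pacemaker channels, and every Cacna2d gene had a site (4 of 4 each), as did 14 of 15 glutamate receptor genes, 14 of 16 GABA type A receptor genes (Gabr) and 8 of 9 Cacna1 calcium channel genes. In contrast, 4 of 10 sodium channel alpha genes, 2 of 8 Cacng and 2 of 8 Clcn chloride channel genes did. The median share of the body covered was 37.9% for potassium channel genes. It was higher in 3 of the families, the sodium channel beta (89.1%), Hcn (61.8%) and Cacna2d genes (46.3%), and lower in the other 9, among them Cacna1 (19.3%), glutamate receptor (3.75%) and Gabr genes (2.73%). These families also differ in gene length, with a median of 32181 bp for potassium channel genes, 14024 bp for sodium channel beta, 29620 bp for Hcn, 284776 bp for Cacna2d, 159266 bp for Cacna1, 223474 bp for glutamate receptor and 89608 bp for Gabr genes. The 4 Cacna2d genes were longer than the potassium channel genes and had the higher median share, with a range from 0% to 96.8%. Pooled over all bases of the genes, 18.2% was covered for Cacna2d and 20.2% for potassium channel genes. Whether length accounts for these differences was not tested. The symbol rule for the Trp family also took Trpc4ap, which is not a channel and had no site.

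**Figure D3:**
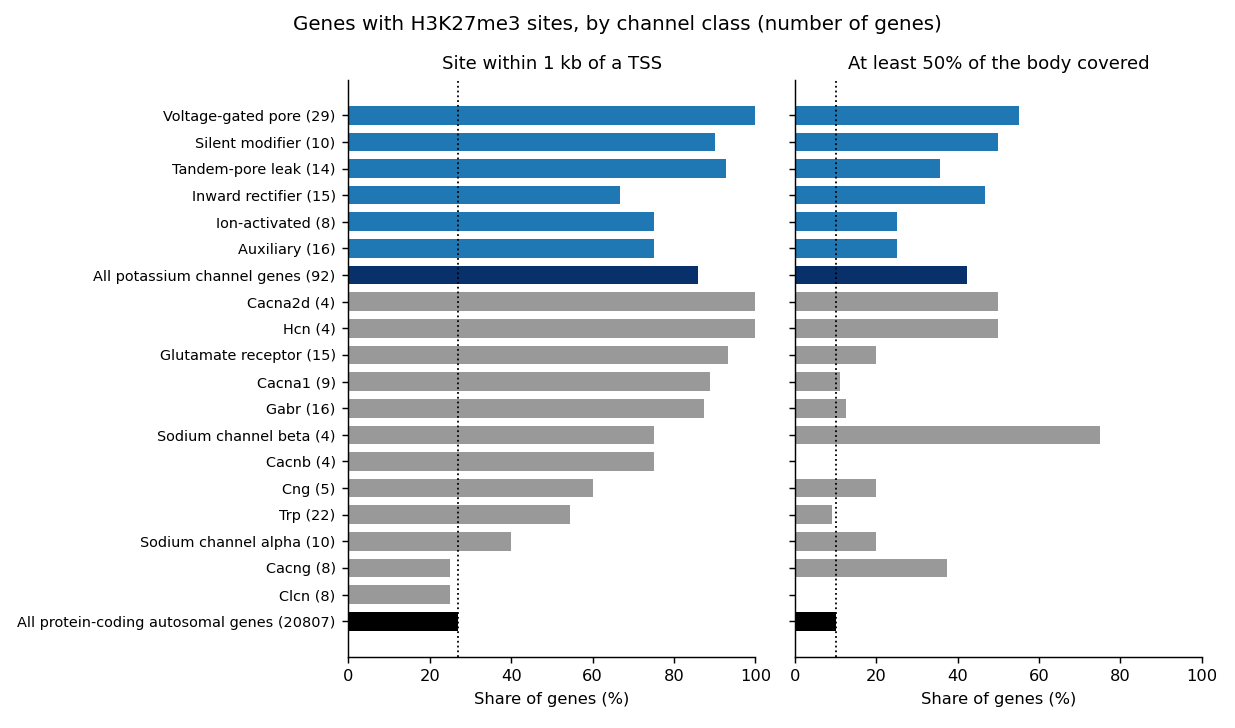
Share of genes (%) with a site within 1 kb of a TSS (left) and with at least 50% of the body covered (right), by role of the potassium channel gene (blue), in 12 other channel and receptor families (grey) and in all protein-coding autosomal genes (black; dotted lines at 26.9% and 10.2%). The 6 potassium channel roles lie right of both lines, as do 10 of the 12 other families in the left panel.

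Around the TSS the mark was highest over the first 500 bp of the gene and fell off slowly. In that bin, at the most upstream TSS of each gene, 76.0% of bases were covered over the 92 genes and 18.7% over all genes. At 20 kb upstream and downstream 27.1% and 32.9% were still covered, compared to 12.5% and 10.2% for all genes. Part of this follows from the larger number of genes with a site. Among genes with a site alone, the first 500 bp were covered to 88.5% in potassium channel genes and 69.6% in all genes. The value 5 kb downstream was 60.3% and 38.8%. At 20 kb downstream it was 38.3% in potassium channel genes with a site and 26.8% in all genes with a site. At 20 kb upstream it was 30.2% and 25.8%, so that little of the far upstream difference remained among genes with a site.

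**Figure D4:**
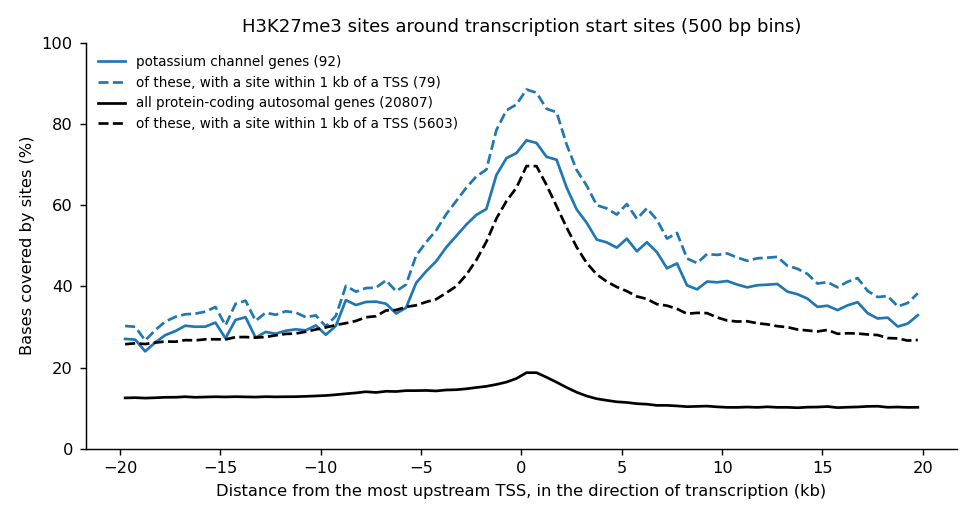
Share of bases covered by sites (%) in 500 bp bins from 20 kb upstream to 20 kb downstream of the most upstream TSS, for the 92 potassium channel genes (blue) and all protein-coding autosomal genes (black); dashed lines are the genes with a site within 1 kb of a TSS. The blue lines peak at 76.0% and 88.5%, the black at 18.7% and 69.6%.

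The sites at potassium channel TSSs were wide. There were 111 of them, with a median width of 6238 bp and a range of 211 to 59649 bp, whereas the median of all 101389 sites was 676 bp. Of the 111, 45 were at least 10 kb wide (40.5%), compared to 2.35% of all sites. Sites at a TSS were also wide in other genes: the widest site at a TSS had a median of 10829 bp in the 79 genes and 4130 bp in all 5603 genes with a site. In 69 of the 79 genes (87.3%) no site at a TSS also reached a TSS of another protein-coding gene, close to the 86.0% of all genes with a site. The 10 others included Kcnj9 and Kcnj10 with each other, Kcna7 with Ntf5, Kcnj11 with Abcc8, whose product is the regulatory subunit of the channel Kcnj11 forms, Kcnh4 with Hcrt, Kcnh6 with Ace3, Kcnip3 with Prom2, Kcnk4 with Catsperz, and Kcnu1 with Ash2l.

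How much of a gene was covered went with its length. Of the 22 genes with a site at a TSS that are 100 kb or longer, 12 had under 5% of the body covered and 8 had over 20%. No gene of 100 kb or more was covered over 100%. Spearman's rho between length and covered share was -0.65 over the 79 genes, and -0.51 over all 5603 genes with a site, both given as descriptions across genes, since a site of a given width fills more of a short gene. The number of covered bases went the other way (rho = 0.31). A few long genes were covered far beyond their starts: Kcnip1 over 186.3 kb in 92 sites, Kcnq3 over 140.8 kb in 98, Kcnn3 over 110.8 kb in 27, Kcnh1 over 107.6 kb in 68 and Kcnj6 over 107.2 kb in 69. Kcnmb1 lies within Kcnip1, so its sites were counted for both. Over all 92 genes, 2.09 of 10.4 Mb were covered (20.2%, compared to 7.18% over all genes). Pooled in the same way, exons were covered to 44.5% and introns to 18.97%. These shares mix bases of short and long genes, and no such values over all genes are given. No preference of the mark for exons can be read from them.

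**Figure D5:**
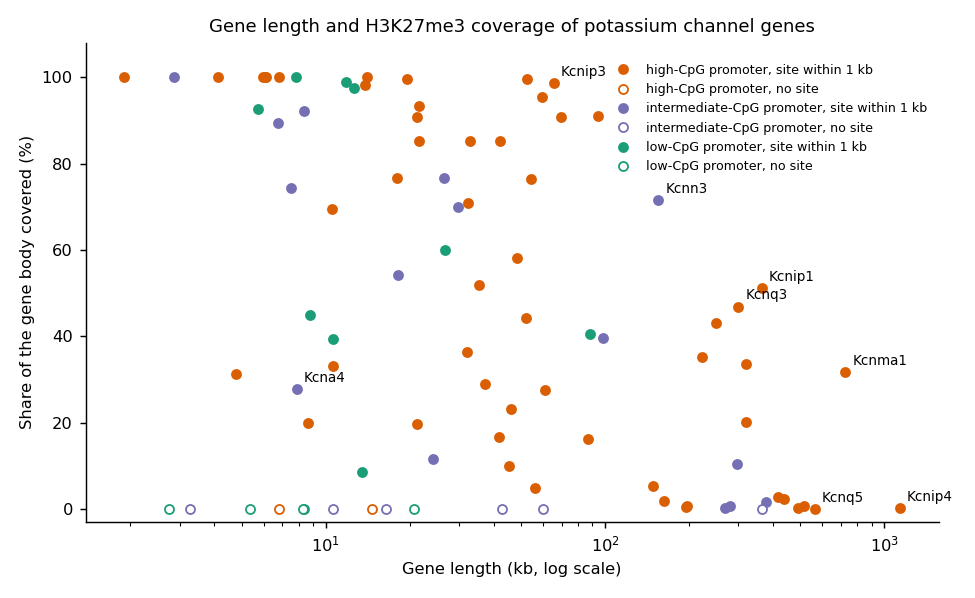
Gene length (kb, log scale) against the share of the gene body covered (%) for the 92 genes, coloured by CpG class of the promoter, filled where a site lies within 1 kb of a TSS. Genes of 100 kb or more lie at or below 71.5% (Kcnn3), and 12 of the 22 with a site lie under 5%.

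Promoters were classed by CpG content as high, intermediate or low, from the observed over expected CpG ratio and GC content in windows around each TSS, with a gene in the class of its most CpG-rich TSS. High-CpG genes made up 57 of the 92, and 53.6% of all genes were in this class. Of these 57, 55 had a site, compared to 24.9% of all high-CpG genes. The share was 15 of 21 for the intermediate class (35.6% of all such genes) and 9 of 14 for the low class (24.8%). The 2 high-CpG genes without a site were Kcnab3 and Kcnv2. The 9 low-CpG genes with a site were Kcna10, Kcne1, Kcne2, Kcng4, Kcnj1, Kcnj9, Kcnk16, Kcnmb1 and Kcnu1, of which Kcnj9 lay under the same site as the high-CpG Kcnj10. RefSeq promoters were found for 68 of the 92 genes. The median number of CpGs in 250 bases was 9 in the 61 fully covered promoters, 5 in the 25 that no site touched, and 6 in all autosomal promoters. The 61 came from 50 genes and the 25 from 19, so some genes counted more than once. Some untouched promoters belonged to genes with a site elsewhere, such as Kcnab2 and Kcnh2. CpG number did not separate covered from untouched promoters fully: the covered promoters held from 0 to 43 CpGs, and the untouched from 1 to 20, as the sequences of Kcnk16 and Kcnj2 above show.

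Where a gene had several promoters, the mark was not always at all of them. The 92 genes had 332 TSSs, of which 234 (70.5%) were within 1 kb of a site, compared to 17.5% of all TSSs. In 57 of the 79 genes every TSS had a site (72.2%, compared to 60.2% of all genes with a site), and in 22 some did not. The most upstream TSS had a site in 74 genes (93.7%), close to the 89.9% of all genes with a site. The 5 exceptions were Kcnab2, Kcne1, Kcnip4, Kcnk2 and Kcnn2.

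In Kcnk2, the 4 TSSs with a site lay 58.1 to 58.9 kb downstream of the first, at a high-CpG promoter, while the 3 at the upstream, intermediate-CpG promoter were 58.2 kb from a site. Kcnn2 was alike, with sites at 3 high-CpG TSSs 290.6 to 291.3 kb inside the gene whereas its upstream TSSs were 285.3 kb or more from a site. Kcnab2 showed the reverse in CpG class. Its 5 upstream TSSs were in the high-CpG class and at least 36.9 kb from a site. The 4 TSSs with a site lay 47.2 to 59.5 kb downstream, in the intermediate or low class. None of these 4 starts a protein-coding transcript, and the coding TSSs of Kcnab2 were at least 8.34 kb from a site. In Kcnip4, which spans 1135 kb, sites lay at 2 internal TSSs, 635.4 and 925.2 kb downstream of the first, and the high-CpG upstream TSSs were at least 307.2 kb from a site. In Kcnh2 the upstream, high-CpG TSS was covered, and the 4 internal TSSs were 8.91 to 12.7 kb from a site.

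The 1 kb limit decided few genes. The genes just inside it were Kcne1, at 669 bp from a site, and Kcnmb1, at 673 bp, and those just outside were Kcnn4 and Kcnj14, at 6960 and 7002 bp. At the limit of 50% of the body, Kcnq3 with 46.9% and Kcnj9 with 45.0% lay just below, and Kcnip1 with 51.2% and Kcnk1 with 51.8% just above. When the centre of the site and not any part of it had to lie within 1 kb of a TSS, 43 of the 92 genes remained, compared to 18.3% of all genes. The 36 genes lost in this way included Kcnj9, Kcnj10, Kcnk15 and Kcnip3, with sites of 40410 to 59649 bp, and also Kcnf1 and Kcnmb1, whose widest sites at the TSS were 1498 and 2959 bp.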

How the data were processed

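H3K27me3 ChIP-seq of 8 libraries, with 4 inputs, was reported by the authors as a single list of sites. The deposited values are positions (chromosome, start and end, in bp, another kind of unit than a read count) on mm10. According to the study's methods, the authors used Trim Galore for trimming, BWA for alignment, samtools for filtering and Picard for merging of replicates, and called broad peaks with MACS (MACS2 in the submitters' processing notes). Versions, cutoffs and the rule that joined peaks of different samples are not given in the sources used here. Such a caller fixes the smallest width and joins nearby stretches, which affects widths and covered shares. The list holds no column of per-sample values (0 columns), so depth is unknown and no test was run, between time points or otherwise.

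Groups were taken from the sample titles, the time of the treated inputs from their sample records. Starts were read as counted from 0, since the smallest width is then 200 bp, and are printed counted from 1. No site was filtered. Genes and TSSs came from GENCODE release M21 (primary assembly, GRCm38), with all annotated transcripts of protein-coding genes on the autosomes. A gene had a site when any base of one lay within 1000 bp of any of its TSSs. CpG classes used windows of 500 bp (step 50 bp) within 1 kb on either side of each TSS: high, a window with an observed over expected ratio above 0.75 and over 55% GC; low, no window with a ratio above 0.48; intermediate otherwise. Promoter sequences were RefSeq's (GRCm38.p6). None of the 92 genes had a TSS in a region replaced by a near-identical patch of the assembly, of 74 patches compared by alignment (at least 5000 bp at 99% identity). The interval code was tested on simulated data. Python 3.11.15, pandas 2.3.3, numpy 2.4.6, pysam 0.24.0, samtools 1.23.1 and matplotlib 3.10.9 were used.

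The genes, the other channel families and the marker lists were chosen with earlier results of these data known. Named with values were the 10 genes with the largest covered share, the most covered gene and the gene farthest from a site in each subfamily of 3 or more, all genes of subfamilies of at most 5, genes sharing a site, and those next to the 1 kb limit. Other Kcna, Kcnh, Kcnj and Kcnk genes, the long genes and the genes with several promoters were named after their values were seen. Values of some single genes are not reported here; these genes stay in the counts and medians.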

Additional observations from a re-analysis of the deposited data

How the results depend on the processing

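The 79 potassium channel genes with a site within 1 kb of a TSS numbered 74 to 79 under windows of 0, 500 and 3000 bp, coding or only the most upstream TSSs, sites of at least 500 or 1000 bp, merged sites and starts counted from 1. With the centre of the site in the window the number was 43, with 18 voltage-gated, 5 tandem-pore, 4 inward rectifier and 3 silent genes; the cause was not tested. The 39 genes with at least 50% of the body covered numbered 36 to 45, and the median share, 37.9%, ranged from 32.5% to 47.6%. Of 231 subfamily counts under these alternatives, 16 moved by over 1.5 times. Kcnab fell from 2 genes to 1 at a window of 0 bp, with coding TSSs only, with the most upstream TSS only and with sites of at least 1000 bp. No paired analysis was possible because the list holds no value per library. For the same reason no replicate could be left out, and what depth limits could not be judged.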
